A study of Mus musculus with 4 samples.

Results

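Interactions that begin and end inside the body of a single gene, away from the ends of every coding gene, were taken from a genome-wide list of chromatin contacts. The list came from H3K27ac HiChIP, an assay that ligates neighbouring chromatin and enriches it for a histone acetylation mark of active promoters and enhancers. Members were chosen by position. Both 10 kb bins of an interaction had to overlap the body of the same autosomal protein-coding gene, and neither could overlap 2.5 kb to either side of an end of any coding gene. Of the 99041 listed interactions, 6032 met the rule (6.09%, exact 95% interval 5.94 to 6.24%). They lay in 938 of the 5655 genes that could hold one (16.6%), made up 0.516% of the bin pairs that could have been listed, and 27 of them lay in 2 overlapping genes. Without a window around gene ends 6911 interactions qualified, and with a window of 5 kb 5539 did.

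The labels describe 4 mouse brain libraries. There were 2 of YAP-M tumor, whose genotype is given as YAP-M fusion (YAP1 joined to MAMLD1, found in ependymoma), and 2 of wild-type neural progenitor cells, also called neural stem cells and grown with EGF, basic FGF and heparin. The same culture text stands with the tumor libraries, whose cells came from tumor tissue by the design text. The titles call the libraries ChIP-seq, whereas the protocol names a micrococcal nuclease HiChIP kit. The list is read from its name, which carries the letters YM, as that of the tumor; no column names a library. It holds positions without read counts, so depth is unknown, no value has a replicate error and no test between tumor and progenitor cells was made. The list measures no RNA, so the labelled cell types could not be checked against marker levels. Exact intervals below cover counting error only, and they are too narrow because neighbouring bins are not independent.

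As background, introns of long genes often hold enhancers, stretches of open and acetylated chromatin that act on a promoter through looping. Long genes also carry alternative promoters, from which shorter transcripts start inside the annotated span. A contact between bins inside a gene can therefore join pairs of enhancers, an enhancer and an internal promoter, or other sites, and 10 kb bins do not tell these apart. The gene table used here gives spans, so exons and introns were not separated.

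Some member bins, those with at least 1 member, hold an annotated internal start site. The 250 bases upstream of 4 of these are shown, picked after the values were seen among bins with at least 7 members, because they are CpG-rich start sites (Stag1 and Cacna1d) or hold a motif of a YAP partner factor (Creb5 and Klhl3). Sequences are from RefSeq (GRCm38.p6, the assembly of mm10), written 5′ to 3′ on the strand of the gene, with matches to GGAATG (TEAD) or TGANTCA (AP-1), on either strand, in capitals.
Stag1, chr9:100643198-100643447, plus strand: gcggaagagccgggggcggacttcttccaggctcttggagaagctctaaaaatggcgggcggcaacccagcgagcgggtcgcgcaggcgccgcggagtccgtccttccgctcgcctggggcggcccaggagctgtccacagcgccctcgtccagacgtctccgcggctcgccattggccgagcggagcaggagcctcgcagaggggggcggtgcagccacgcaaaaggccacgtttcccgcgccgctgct
Cacna1d, chr14:30353487-30353736, minus strand: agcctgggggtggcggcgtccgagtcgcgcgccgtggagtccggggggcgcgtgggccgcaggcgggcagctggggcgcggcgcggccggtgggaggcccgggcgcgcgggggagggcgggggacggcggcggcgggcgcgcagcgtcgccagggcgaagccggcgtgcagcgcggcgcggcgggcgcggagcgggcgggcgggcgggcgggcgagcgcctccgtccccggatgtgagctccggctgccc
Creb5, chr6:53573124-53573373, plus strand: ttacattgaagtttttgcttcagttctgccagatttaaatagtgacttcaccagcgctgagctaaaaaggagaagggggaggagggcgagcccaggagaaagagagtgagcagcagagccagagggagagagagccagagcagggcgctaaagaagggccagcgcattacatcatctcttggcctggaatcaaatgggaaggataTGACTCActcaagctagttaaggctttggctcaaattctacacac
Klhl3, chr13:58113648-58113897, minus strand: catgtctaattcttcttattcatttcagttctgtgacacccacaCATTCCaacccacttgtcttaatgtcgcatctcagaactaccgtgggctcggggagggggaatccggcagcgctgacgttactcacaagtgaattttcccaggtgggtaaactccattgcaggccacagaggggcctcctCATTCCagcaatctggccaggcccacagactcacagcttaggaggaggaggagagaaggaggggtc
The Stag1 and Cacna1d stretches hold 31 and 50 CpG dinucleotides, at 71.2% and 86.4% G and C, and no match. The Creb5 stretch, at 49.2%, holds 1 AP-1 match, and the Klhl3 stretch, at 53.2%, holds 2 TEAD matches. The bins of these start sites took part in 18 intragenic interactions at Stag1, 7 at Cacna1d, 10 at Creb5 and 7 at Klhl3.

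A gene can hold a member only if at least 1 pair of its interior bins lies 20 to 1000 kb apart, the range of the list. Of 20665 autosomal coding genes, 5655 allowed such a pair, and the shortest of them was 35.5 kb long. Together they allowed 1168510 pairs of bins, of which 0.516% were listed. An intragenic interaction was listed in 4.69% of 3345 genes under 100 kb, 24.0% of 1366 genes of 100 to 200 kb, 46.8% of 728 genes of 200 to 500 kb, 48.4% of 161 genes of 500 to 1000 kb and 61.8% of 55 longer genes. Per possible pair the order was different: 1.13%, 1.40% and 1.13% in the 3 shorter classes, 0.291% from 500 to 1000 kb and 0.0868% above. Longer genes thus more often had a member, whereas possible pairs were less often listed in genes above 500 kb. Pair distance was not held fixed here, and longer genes allow more distant pairs. Over all genes, the listed share was 1.05% for pairs 100 to 140 kb apart and 0.0593% for pairs 500 to 1000 kb apart.

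Members were shorter than the list as a whole. Their median distance was 120 kb (quartiles 70 and 180 kb), against 180 kb (quartiles 100 and 300 kb) over all listed interactions. Gene length bounds this distance. Only 1.76% of members (106 interactions in 20 genes) spanned more than 500 kb, against 9.11% of the list. Of these 106, 39 lay in Prkg1, which encodes a cyclic GMP-dependent protein kinase.

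Set beside other bin pairs away from gene ends at the same distances, pairs inside the same gene were listed about as often as pairs inside 2 different genes. At 100 to 140 kb, 1.05% of possible pairs within a gene were listed (exact 95% interval 0.998 to 1.10%), against 1.05% (0.976 to 1.13%) between the interiors of different genes. Pairs joining the inside of a gene to a site between genes were listed more often, at 1.301% (1.251 to 1.352%), and pairs within the same gap between genes less often, at 0.427% (0.407 to 0.448%). Weighted to the distances of the possible same-gene pairs, the shares were 0.516% within a gene, 0.509% between 2 genes, 0.711% between a gene interior and a gap, 0.477% between different gaps and 0.240% within a gap. At 20 to 40 kb the same-gene share was 0.302% (0.276 to 0.331%) and that between different genes 0.451% (0.304 to 0.643%), with overlapping intervals. From 500 kb the same-gene share (0.0593%, 0.0489 to 0.0711%) was above that between different genes (0.0235%, 0.0208 to 0.0264%). Mappability was not taken into account, so these shares describe the list, and no chance test was run on them.

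**Figure D1:**
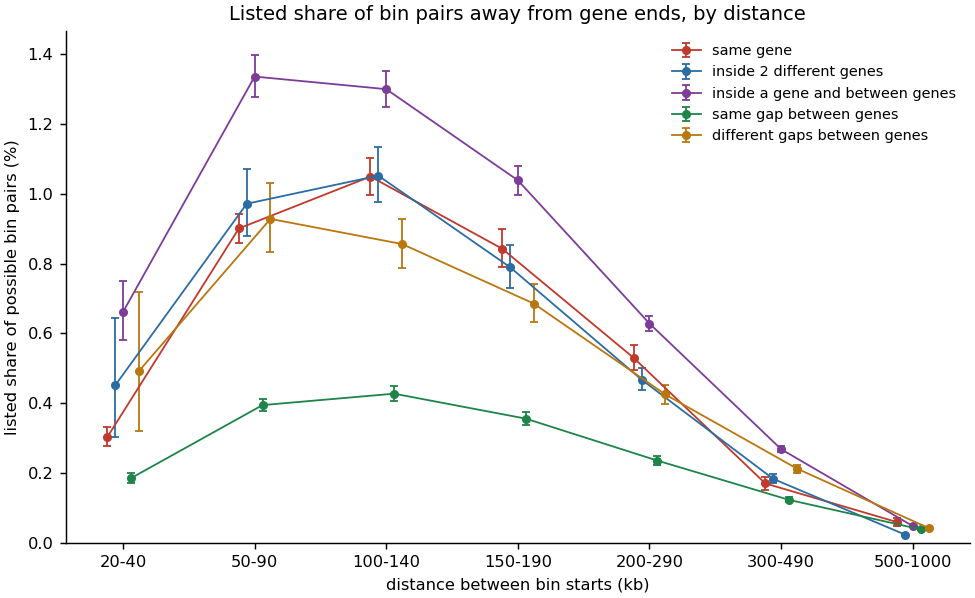
Listed share of possible bin pairs away from gene ends (y axis, percent) against the distance between bin starts (x axis, kb), for 5 classes of pairs; points are shares and bars exact 95% intervals. The same-gene curve peaks at 100 to 140 kb with 1.05% and runs beside the curve for different genes, while pairs within a gap between genes stay at or below 0.427%.

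Members were concentrated in few genes. The median was 3 per gene among the 938, 280 genes (29.9%) had 1, and 69 genes with 20 or more held 39.5% of all members. The leader was Bach2, a transcriptional repressor of the basic leucine zipper class, with 93 interactions, 18.8% of its 496 possible pairs. Next came Maml2, a mastermind-family co-activator of Notch, with 79 (10.7% of 741 pairs) and Rad51b, a homologous recombination gene, with 77 (5.59% of 1378). Nfia, a nuclear factor I transcription factor of gliogenesis, had 76 (5.96% of 1275), and Cacna1d, an L-type calcium channel subunit, had 68 (8.29% of 820). All 5 shares were more than 10 times the 0.516% of all possible pairs, a description of genes picked for their counts. That background is pooled over all lengths. It was 1.13% in genes of 200 to 500 kb, the class of Bach2, Maml2 and Cacna1d. In genes of 500 to 1000 kb, the class of Rad51b and Nfia, it was 0.291%. When bins with ends of non-coding genes were left out as well, Rad51b led with 60, and it led with 73 when bins next to a coding gene end's bin were left out.

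The next 10 genes by count were of varied function. Foxp1, a forkhead repressor, had 66 interactions, Dnm3, a dynamin, had 62, and Prkg1 had 59. Zfhx3, a zinc finger homeobox factor, had 58. The GTPase-activating protein gene Stard13 and the scaffold gene Frmd4a had 48 each. The CREB-family gene Creb5 and the neuron navigator gene Nav2 had 47 each, followed by Ttc28 with 45 and the zinc finger gene Hivep3 with 43.

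Adjacent bins often carried adjacent calls. Interactions whose bins lay within 1 bin of each other on both sides merged into 2415 contacts, of which 48.4% were a single interaction and the largest joined 39. By merged contacts the order changed: Foxp1 led with 27, Prkg1 had 21, Zfhx3 and Dlg2 had 19 each, and Bach2 had 11. Cacna1d, Nav2, Ldlrad4 and Macrod2 had 17 each, Nfia 16 and Lpp 15. Of all members, 12.4% had no adjacent listed interaction of any kind, against 10.1% of the whole list.

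Genes shorter than the leaders by count led when counts were set against possible pairs. The 10 with the largest shares ran from 136.0 kb (Kansl1) to 231.7 kb (Tjp1). The median of all genes that allow a pair was 84.1 kb, and the minimum of 45 possible pairs leaves out the shortest genes. Among genes with at least 45 possible pairs, Septin9, a cytoskeletal GTP-binding protein, had 26.9% of its 78 pairs listed (21 interactions). Vav2, a guanine nucleotide exchange factor, had 26.4% of 91 (24 interactions in 1 merged contact), and Man1c1, a mannosidase, had 25.8% of 66. The shares were 22.7% each at Rgs3, Ubash3b and Nxn, 20.5% each at Ankrd11 and Ston2, and 20.0% at Kansl1, a subunit of an acetyltransferase complex. Tjp1, the tight junction protein ZO-1, combined both measures with 41 interactions and 19.5% of 210 pairs.

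**Figure D2:**
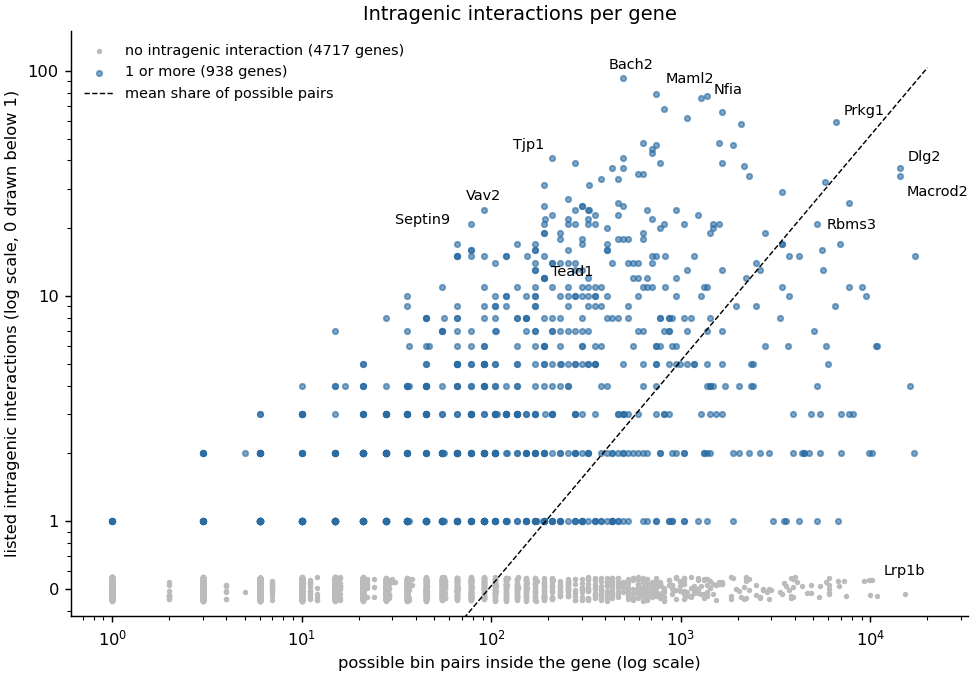
Listed intragenic interactions (y axis, log scale, 0 drawn below 1) against possible bin pairs (x axis, log scale) for the 5655 genes that allow a pair; each point is a gene, and the dashed line is the pooled share of possible pairs. Bach2 (93), Maml2 (79) and Nfia (76) lie far above the line, whereas Lrp1b, with 15246 possible pairs, has none.

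Within the leading genes, contacts formed stripes and blocks. With each gene split into 3 equal parts, 42 of the 93 Bach2 interactions joined the 5′ to the 3′ part and 40 the middle to the 3′ part. The bin chr4:32250001-32260000, 20 kb from the 5′ end, had 19 intragenic partners, all at higher coordinates and up to 320 kb away, and the bin chr4:32530001-32540000 had 16. In Foxp1 36 of 66 and in Prkg1 31 of 59 also joined the outer parts, whereas in Zfhx3 and Hivep3 none did, and 37 of 58 and 41 of 43 joined the middle to the 3′ part. In Maml2 a pair of neighbouring bins formed a stripe. The bin chr9:13300001-13310000, 10 kb from the 5′ end, had 25 intragenic partners, the most of any bin, lying 110 to 380 kb downstream in 3 runs of adjacent bins, and the next bin had 21. This pair of Maml2 bins, and the Bach2 bin 20 kb from the 5′ end, adjoin the excluded bins at the 5′ end of their gene. Whether contacts of the promoter regions are part of their counts was not tested.

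Nfia differed in that its stripe began deep inside the gene. The bins chr4:97750001-97760000 and chr4:97770001-97780000, 180 and 200 kb from the 5′ end, had 23 and 21 intragenic partners, all downstream. Counting partners outside the rule as well, they had 50 and 34. A facing bin near the 3′ end, chr4:98100001-98110000, had 17 intragenic partners, all at lower coordinates. In Cacna1d, which lies on the minus strand, the bin chr14:30450001-30460000 lay 40 kb from the 5′ end and had 22 intragenic partners and no other. In Rad51b, 18 of 77 interactions ran through chr12:79350001-79360000 and reached 480 kb. Prkg1 held the longest member of all, which joined chr19:30760001-30770000 to chr19:31750001-31760000 over 990 kb, and the median of its interactions was 820 kb. Gpc6, a glypican with 4 members, had 1 of 960 kb.

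**Figure D3:**
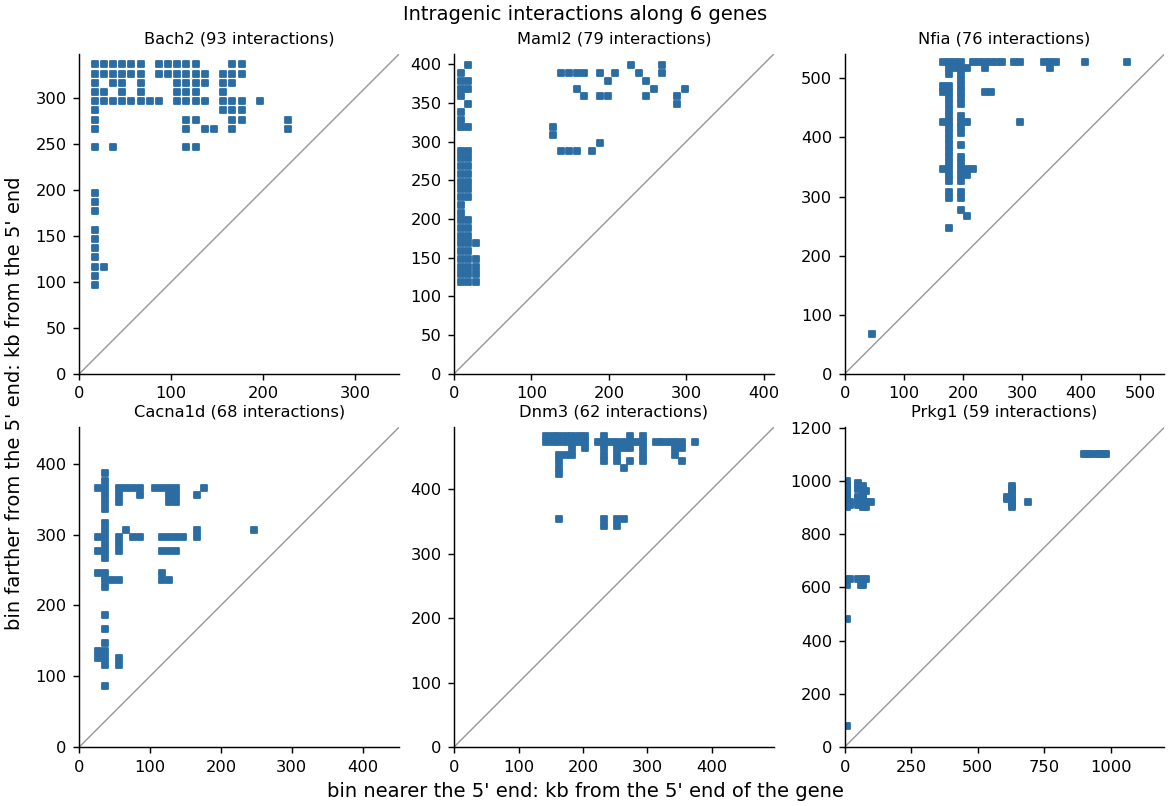
Intragenic interactions of 6 genes; each square is an interaction, placed by the distance of its 2 bins from the 5′ end of the gene (both axes, kb), with the diagonal in grey. Bach2 shows contacts of its 5′ and middle parts with its 3′ part, Maml2 a stripe at 10 to 20 kb, Nfia stripes at 180 and 200 kb, and Prkg1 clusters of pairs up to 990 kb apart.

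Such concentration was common. In the 183 genes with 10 or more members, the leading bin took part in a median of 40% of them (range 18.6 to 100%). All 18 intragenic interactions of Stag1, a cohesin subunit gene, ran through the bin chr9:100640001-100650000, which holds the start site printed above, and 17 of 20 at Runx2, an osteoblast transcription factor, through chr17:44730001-44740000. These 2 genes were named by the places of their bins among the 12 with the most intragenic partners, after the values were seen. Over all genes, 5623 of 70216 possible bins had a member (8.01%). Among them 53.7% had 1 and 66 bins in 43 genes had 10 or more. In 49 of these 66, every intragenic partner lay on the same side. The place of a bin in its gene limits the sides on which partners can lie.

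Member bins also made contacts outside the rule. Of the 5623, 33.7% had a listed interaction with an end of their own gene, 30.3% with an end of another coding gene and 27.7% with a site between genes, while 42.5% had partners only inside their gene. Other possible bins with an interaction have, by construction, a partner outside the rule, so they were set beside the 3235 member bins that also have one. Own ends were partners in 58.6% of these 3235 and 28.6% of the 11994 other bins, ends of other coding genes in 52.7% and 55.9%, and sites between genes in 48.2% and 38.8%. The kinds are not exclusive, and a bin with more interactions can reach more of them. At the level of genes, 721 of the 938 (76.9%) also had an interaction from their own end to their inside, against 803 of the 4717 genes (17.02%) that allowed a pair and had no member. Gene length differed between these groups, with medians of 192.9 and 74.4 kb. The remaining 217 genes had contacts within the body and none from their ends into it. With 20 or more members these were Zfhx3 (58), Macrod2 (34), Pde4d (26), Ltbp1 (24), Rbms3 (21), Ank2 (20) and Runx2 (20), a set chosen after the values were seen. Ends are those of the outermost annotated span, so contacts of a promoter inside the span count as contacts within the body. In Zfhx3, a bin with an internal start site had 10 members. Where a gene's strand was known, its 5′ end was linked to its inside 4070 times and its 3′ end 641 times, summed over genes.

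Close to gene ends, bins on the 5′ side more often had a member. Strand was taken from the RefSeq start-site table, which held 4421 of the 5655 genes. Of bins 10 kb from the bin with the 5′ end, 9.15% had a member (exact 95% interval 8.20 to 10.2%), against 5.29% (4.55 to 6.10%) of bins 10 kb from the 3′ end. At 20 kb the shares were 6.12% (5.42 to 6.87%) and 5.29% (4.65 to 5.9996%). Between 100 and 190 kb they were 10.97% (10.4 to 11.6%) from the 5′ end and 12.2% (11.6 to 12.9%) from the 3′ end, where long genes supply the bins. Within genes that had a member, the 5 equal parts from the 5′ to the 3′ end had members at 25.5%, 20.9%, 20.6%, 23.3% and 22.8% of their possible bins.

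Bins that hold an internal start site of their gene had members more often. Of 1212 such bins, 243 had one (20.0%, 17.8 to 22.4%), against 2015 of 16528 other possible bins of the same genes (12.2%, 11.7 to 12.7%). The same bins more often had a listed interaction of any kind, 52.8% (640 bins) against 25.9% (4276 bins). Among the bins with any interaction, a member was less frequent at start sites, at 37.97% (34.2 to 41.9%) against 47.1% (45.6 to 48.6%). The higher share was thus seen for interactions of any kind as well. The bins were not matched for gene length or possible partners, and whether intragenic contacts differ from others here was not tested. Bins next to a start-site bin had a member in 11.8% of cases (10.4 to 13.3%). Among pairs of 50 to 190 kb in these genes, 5.31% (4.84 to 5.80%) were listed where a bin held an internal start site, and 1.03% (0.975 to 1.08%) where none did. Bins with an end of a long non-coding RNA gene had a member in 13.1% of cases (639 of 4880, 12.2 to 14.1%), against 7.72% (7.52 to 7.94%) of bins with no annotated gene end. For interactions of any kind these shares were 37.0% and 24.2%, and among bins with any interaction a member was present in 35.4% (33.2 to 37.7%) and 31.9% (31.1 to 32.6%). Most members had no internal start site. In genes with a start-site entry, 617 of 4800 members (12.9%) had one in 1 bin and 10 (0.208%) in both. Such sites were rarer still among possible pairs of these genes: 19202 had one in 1 bin, 211 in both and 877397 in neither. Of these, 3.21%, 4.74% and 0.476% were listed, with neither pair distance nor gene length held fixed. The last share includes pairs in genes without an internal start site. Of the 57 bins with 10 or more members in genes in the table, 6 held one. Among all possible bins of genes in the table, 1212 held one and 53276 did not.

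**Figure D4:**
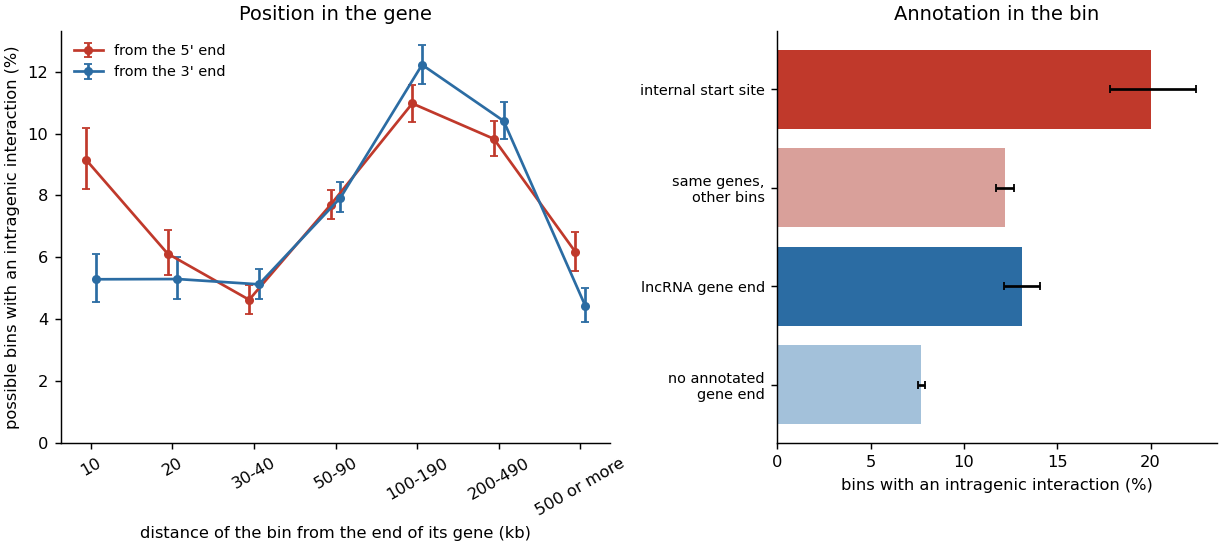
Share of possible bins with a member (percent, exact 95% intervals) by distance from the 5′ or 3′ end of the gene in kb (left), and by what the bin holds (right). At 10 kb the 5′ side stands at 9.15% and the 3′ side at 5.29%; bins with an internal start site stand at 20.0%.

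After Stag1, the start-site bins with the most members were those of Gse1 (12), a nuclear protein gene, of Hdac4 (10), a class II histone deacetylase, of Creb5, Zfhx3 and the calcium channel gene Cacna1c (10 each), and of Pid1 and Limch1 (9 each), a group chosen after the values were seen. Motif matches were counted next. In windows of 250 bases before to 50 after a start, GGAATG on either strand was present in 14.3% of 280 internal start windows in member bins (10.4 to 18.9%), 17.5% of 1095 in other possible bins (15.3 to 19.9%) and 14.7% of all 32851 promoter windows. TGANTCA was present in 10.0% (6.75 to 14.1%), 7.85% (6.33 to 9.61%) and 7.81%. The full NFI palindrome, TTGGC and GCCAA separated by 5 bases, was found in 0 of the 280 (upper limit 1.31%), 1 of the 1095 and 12 of all windows. No motif contains another, and a match describes these windows and no binding.

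Several microRNA genes lie in member bins. Of 222 annotated hairpins in possible bins, 23 (10.4%) were in a bin with a member, against 8.01% of all possible bins, and 20 of the 23 had a mature sequence in the table. Dnm3 holds a pair of them. The hairpins of Mir199a-2 (chr1:162217814-162217923) and Mir214 (chr1:162223368-162223477), on the strand opposite to Dnm3, lie in adjacent bins with 4 and 6 of its members. Of these, 1 from each bin reached chr1:162000001-162010000, which had the most members in the gene (21), at distances of 210 and 220 kb. Mature sequences (RefSeq, GRCm38.p6) of this cluster and of 3 single hairpins in other genes are shown with the seed, bases 2 to 8, in capitals.
mmu-miR-199a-5p: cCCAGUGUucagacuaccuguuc
mmu-miR-199a-3p: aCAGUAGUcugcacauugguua
mmu-miR-214-3p: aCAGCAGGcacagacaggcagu
mmu-miR-26a-5p: uUCAAGUAauccaggauaggcu
mmu-miR-107-3p: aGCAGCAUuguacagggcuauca
mmu-miR-342-3p: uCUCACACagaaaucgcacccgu
The 33 mature sequences of the 20 hairpins had 33 distinct seeds, so none shared one. The last 3 sequences come from Mir26a-1 in Ctdspl, Mir107 in Pank1 and Mir342 in Evl, each in a bin with 1 member. Whether a contact concerns the microRNA or another element of the bin cannot be told apart at 10 kb.

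Gene lists were described by the number of genes that allow a pair and the number with a member, beside 16.6% of all genes that allow a pair, 31.9% of genes of 100 to 500 kb and 51.9% of genes of at least 500 kb. Median lengths of the lists differ, so the shares by length class are a nearer background than that of all genes. They are not matched to the lengths of any list, and some lists mix classes. Within the class of 100 to 500 kb, the share was 24.0% from 100 to 200 kb and 46.8% from 200 to 500 kb. Canonical YAP/TEAD targets had a member in 7 of 10 genes (70.0%, exact 95% interval 34.8 to 93.3%) at a median length of 146.5 kb. Asap1, an ArfGAP of focal adhesions, had 33 (8.73% of 378 pairs). Rbms3, an RNA-binding protein gene of 1057.2 kb, had 21 (0.400% of 5247 pairs) in 13 merged contacts. No interaction ran from the ends of Rbms3 into the gene. Myof had 4, Dock5 had 3, Ptpn14 had 2, and Amotl1 and Crim1 had 1 each. Lats2, Tgfb2 and Arhgef17 allowed 1, 15 and 3 pairs and had none. The other 12 of the 22 targets, among them Ccn1, Ccn2, Ankrd1 and Amotl2, allowed no pair, so the share does not describe them.

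Of the Hippo pathway genes, 6 of 18 had a member (33.3%, 13.3 to 59.0%). Tead1, a DNA-binding partner of YAP, had 15, which is 7.89% of 190 pairs, in 3 merged contacts. The bin chr7:112860001-112870000 took part in 8 of them and had 21 interactions in all. Wwc2, an upstream scaffold of the pathway, had 5. Wwtr1, the paralog of Yap1 also called TAZ, had 3, as did the cofactor gene Vgll4 and the atypical cadherin gene Fat1. Yap1 itself, with 10 possible pairs, had none, and its 3 interactions into the gene came from its 5′ end. The kinase gene Stk3 allowed 325 pairs and also had none.

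Nuclear factor I genes, which encode transcription factors of glial development, were uneven, although 3 of 3 that allow a pair had a member (exact 95% interval 29.2 to 100%). Nfia had 76 members, Nfix had 2 of 21 pairs and Nfib had 1 of 171. The Notch list was as uneven: 3 of 10 genes had a member, and Maml2 (79) and Maml3 (20) held 99 of its 100. Maml3, a further mastermind gene, had 13 of its 20 through the single bin chr3:51700001-51710000, 400 kb from the 5′ end, and 27 interactions from its 5′ end into the gene. The receptor gene Notch2, with 55 possible pairs, had none. Among neural progenitor factors 10 of 20 had a member (50%, 27.2 to 72.8%), led by Foxp1 and Zfhx3, with 25 at Tcf4 and 15 at Sox5.

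Signalling, structural and chromatin lists ranged from 23.5% to 38.1%. Of receptor tyrosine kinase genes, 5 of 19 had a member (26.3%, 9.15 to 51.2%), with 21 at Igf1r, the receptor of insulin-like growth factor, and 5 at Egfr. Of TGF-beta and BMP genes, 4 of 17 did (23.5%, 6.81 to 49.9%), and Ltbp1, which binds latent TGF-beta, held 24 of their 31. Adhesion, matrix and actin genes had a member in 7 of 25 (28.0%, 12.1 to 49.4%), led by Lpp, a LIM protein of focal adhesions, with 39 and the tensin gene Tns1 with 16. Among co-activator and chromatin genes 8 of 21 did (38.1%, 18.1 to 61.6%), with 26 at the co-repressor gene Rere and 14 at Arid1b, a subunit of the BAF remodelling complex.

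Markers of cell types that a brain tumor can hold were mixed. Microglia and macrophage genes had a member in 9 of 14 (64.3%, 35.1 to 87.2%), with 15 at Elmo1, an engulfment protein gene, and 12 at the transcription factor gene Runx1. The other 7 had 1 to 4 each. Ptprc, with 36 possible pairs, Inpp5d and Mrc1, with 21 each, and P2ry12 and Itgam, with 3 each, had none. The microglia genes Csf1r, Cx3cr1, Tmem119 and Cd74 allowed no pair. Astrocyte and radial glia genes had a member in 5 of 12 (41.7%, 15.2 to 72.3%). Zbtb20 had 13 of its 2628 pairs listed and Gpc5 had 11 of 9009. Gli3, with 276 possible pairs, and Ptprz1, with 120, were among those with none. Oligodendrocyte lineage genes had a member in 4 of 10 (40%, 12.2 to 73.8%), with 10 of 105 pairs at Prr5l. Tnr, with 703 possible pairs, and St18, with 595, were among those with none. Endothelial genes had one in 2 of 15 (13.3%, 1.66 to 40.5%), at Tjp1 and Prkch, while Flt1, with 91 possible pairs, and Erg, with 190, had none. Pericyte and fibroblast genes had none in 7, although Bnc2 allowed 741 pairs and Ebf1 630. With 7 genes the exact interval reaches 41.0%.

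Ependymal and motile cilium genes, markers of the ciliated cells that line the ventricles, had a member in 2 of 18 (11.1%, 1.38 to 34.7%) at a median length of 255.4 kb. Cfap299 had 12 and the axonemal dynein gene Dnah5 had 1. The dynein genes Dnah9 and Dnah11, Cfap54 and Hydin allowed 406 to 496 pairs each, and Spag16 allowed 3828, without a member. Genes of unrelated tissues had one in 2 of 14 (14.3%, 1.78 to 42.8%), with 1 at Cftr and 8 at Tg, the thyroglobulin gene. The span of Tg overlaps the coding gene Sla, whose own end bins were left out by the rule.

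**Figure D5:**
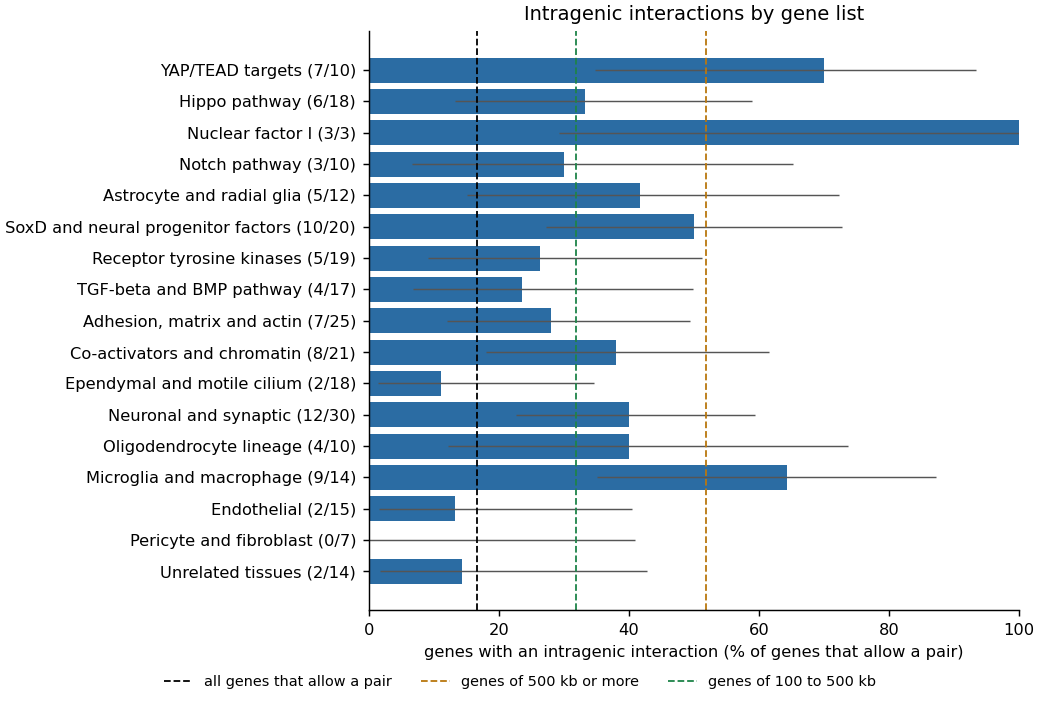
Share of genes with a member among the genes that allow a pair (x axis, percent, exact 95% intervals) for 17 gene lists, with counts beside each name; dashed lines mark all genes (16.6%), genes of 100 to 500 kb (31.9%) and genes of at least 500 kb (51.9%). Nuclear factor I genes (3 of 3), YAP/TEAD targets (7 of 10) and microglia genes (9 of 14) have the highest shares, and pericyte and fibroblast (0 of 7) and ependymal genes (2 of 18) the lowest, with wide intervals.

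Neuronal genes of at least 500 kb had a member less often than other genes above that limit, with overlapping intervals and without matching for length. Of 30 neuronal and synaptic genes, 12 had a member, with 98 interactions in 201128 possible pairs (0.0487%). Taking only genes of at least 500 kb, 10 of 27 in this list had one (37.0%, 19.4 to 57.6%), against 102 of 189 other genes (54.0%, 46.6 to 61.2%), and 0.0470% against 0.222% of possible pairs were listed. The median length was 1103.2 kb over the 30 neuronal genes and 734.6 kb over all genes of at least 500 kb. Over all genes, the listed share of pairs was 0.291% from 500 to 1000 kb and 0.0868% above. The contrast of shares of pairs therefore includes length and pair distance. Dlg2, a postsynaptic scaffold gene, had 37, of which 16 ran through chr7:91130001-91140000, the growth factor gene Nrg1 had 16 and the receptor phosphatase gene Ptprd had 15. The 5 longest genes without a member were Lrp1b, Csmd1, Robo2, Rbfox1 and Dpp10, which allowed 15246, 10772, 10197, 9900 and 9801 pairs. In Robo2, an axon guidance receptor gene, no possible bin had a listed interaction of any kind. Of the 55 genes of 1000 kb or more, 21 had no member, and in 11 of these no possible bin had any interaction. At unknown depth, such a gene is one where nothing was detected.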

How the data were processed

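H3K27ac HiChIP interactions of mouse brain libraries were analysed from the positions the authors deposited. Per the file header, each row gives the chromosome, start and end of 2 anchors, with no count, score or q-value. Per the submitters' processing notes, BWA and mm10 were used. Neither the interaction caller and its threshold nor whether libraries were pooled is given in the sources used here. Gene spans came from RefSeq for GRCm38.p6, and start sites and strand from its promoter table, which held 4421 of the 5655 genes that allow a pair and no entry for chromosome 18. A gene's span is that of its outermost transcripts, so a main promoter can lie inside it. Possible pairs are bin pairs of a gene that meet the rule at 20 to 1000 kb.

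Members, gene lists and the rule for named genes were chosen with earlier results of these data known. The rule took the 15 genes with the most members, the 10 with the most merged contacts, the 10 with the largest share among genes with at least 45 possible pairs, the first 2 of each list, the genes of the 5 leading bins and of the 5 longest members, the 5 longest genes without a member, and 6 genes by name. Not every gene it takes is described, and genes named beyond it or with the lists' counts were chosen after their values were seen. The 17 lists held 341 genes, of which 256 allowed a pair. With 1 list there was no test; shares have exact Clopper-Pearson intervals (95%). The assignment was checked on simulated positions. Python 3.11.15, numpy 2.4.6, pandas 2.3.3 and scipy 1.17.1 were used.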

Additional observations from a re-analysis of the deposited data

How the results depend on the processing

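No paired analysis was possible because interactions carry no library of origin, and for the same reason no library was left out. Depth is unknown, so a gene without a member was not detected rather than shown to have none. Requiring bins wholly inside the gene, or by midpoint, changed nothing, since the rule already leaves out the bins at its ends. The share of listed interactions was 6.98% with a gene-end window of 0 kb, 5.59% with 5 kb, 4.35% with ends of all annotated genes, 8.61% after merging, and, in alternatives chosen after seeing the data, 4.38% without bins next to one with a coding gene end and 5.03% without bins that hold a start site. The listed share of possible pairs was 0.574%, 0.488% and 0.438% in the first 3 of these, 0.414% and 0.446% in the last 2, and 0.546% for distances of at least 40 kb; it has no value after merging. Merging left 2415 members with a median of 100 kb and at most 27 in a gene, at Foxp1 in place of Bach2. With ends of all annotated genes the largest number was 60, at Rad51b, and without bins next to one with a coding gene end it was 73, also at Rad51b. Of the values under the 10 alternatives, 43 were labelled as staying, this 73 among them, and 16 as moved. Counts stayed if within 1.5 times the main count, shares if inside the main interval, and medians only if equal. The 43 include values that could not differ: those for bins wholly inside the gene or by midpoint, and the number of genes after merging.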

Other observations

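In 3 long genes without a member, chosen after their values were seen, the possible bins did have listed interactions. Interior bins of Trpm3, a cation channel gene of 857.6 kb, had 50 listed interactions, those of Galntl6 had 45 and those of the oxidoreductase gene Wwox had 42, and in each gene none of these joined 2 possible bins of that gene or came from its own ends. Per chromosome, the listed share of possible pairs ran from 0.312% on chromosome 16 to 1.02% on chromosome 19, and the number of genes with a member from 35 on chromosomes 18 and 19 to 75 on chromosome 2. Gene length and pair distance were not held fixed in these shares. On chromosome 16, Lsamp, with 4 members, allowed 16202 of the 70861 possible pairs. Robo2 and Rbfox1, without a member, allowed 10197 and 9900.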
